A study of Mus musculus with 6 samples.

Results

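The mitochondrial ribosomal proteins measured here were the genes whose symbol begins with Mrpl or Mrps followed by a digit. Among 45101 probe sets on each array, 156 carried 1 such symbol in the platform annotation, and they stood for 76 of the 18194 genes that could be named. The rule used symbols alone and no measured value, but it was set with earlier results of these data known. Of these genes 49 belong to the large subunit and 26 to the small subunit of the mitochondrial ribosome, and Mrps36 carries a small-subunit name although its protein is known as a component of the 2-oxoglutarate dehydrogenase complex. A single probe set measured 34 genes, 42 had several, up to 8, and a gene was represented by its brightest one. A further 4 probe sets listed an Mrp symbol together with other genes and were left out.

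The cells were A20, a B lymphoma line from a BALB/c mouse, and each of 6 conditions was hybridised to 1 Affymetrix whole-genome array. TGF-β was given for 12 h or 24 h together with SP600125, a small-molecule inhibitor of the JNK kinases, or for 12 h or 24 h with DMSO. SP600125 alone was given for 24 h, and untreated cells received DMSO and no TGF-β, so that the arm with the drug had 24 h of it at 0 h and 24 h of TGF-β but 12 h of it at 12 h. The design asks which responses to TGF-β depend on JNK. No condition was repeated, and the labels name no separate cultures. A p-value here thus reflects the spread of single arrays around a fitted model and nothing more, and that spread may be technical. The array of TGF-β for 24 h with SP600125 stood apart, with an 18S ribosomal RNA signal of 5878.2 against 506.5 to 881.5 on the other 5, an actin 3′/5′ ratio of 1.89 against 1.25 to 1.51 and a Gapdh 3′/5′ ratio of 0.976 against 0.777 to 0.876. All 6 of the B cell markers found (Cd79a, Cd79b, Ms4a1, Cd74, Blnk and Pax5) were above the detection floor on every array, with a summed signal of 49225 to 76014. Summed signals were 145.6 to 312.5 for 6 T and NK cell markers, 0 of them above the floor on all arrays, 488 to 624.5 for 6 myeloid markers, 1 of them above it on all (Csf1r), and 193.5 to 298.4 for 4 fibroblast markers, 0 of them above it on all. Hba-a1, the 1 erythroid marker found of 3, was below the floor on each array.

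Mitochondrial ribosomes translate the few proteins encoded by mitochondrial DNA, all of them subunits of the oxidative phosphorylation complexes. Their RNA is made in the mitochondrion, but every one of their proteins is encoded in the nucleus, made in the cytosol and imported. Some of the proteins descend from those of the bacterial ribosome, and others were added in mitochondria. The large subunit holds the peptidyl transferase centre, the stalk that recruits translation factors, the central protuberance that contacts the small subunit, and the tunnel exit at the inner membrane. The small subunit binds the messenger RNA and decodes it.

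All 76 genes were above the floor on all 6 arrays, with signals of 616.4 to 11879, so the filter on low signals, which asked for 2 arrays above a signal of 74.2, removed none of them. Signals are linear intensities of a probe set. They are compared between arrays and not between genes. Effects below are log2 differences from an additive limma model over all 6 arrays, in which TGF-β at 12 h and at 24 h was averaged over both drug settings and SP600125 over the 3 TGF-β times, and errors after ± are standard errors from that model. With 1 array per condition, the error of that model is the departure from additive effects of TGF-β and SP600125. A TGF-β effect that differs with the drug thus raises the error, and such a gene is less likely to be called. A gene rose or fell if its Benjamini-Hochberg adjusted p over 11698 genes was under 0.05. Because each array was scaled to 1 target, an effect is relative to the rest of the array. In bulk RNA, fewer cells of one kind and less RNA per cell cannot be told apart.

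After 24 h of TGF-β, the messenger RNAs of the mitochondrial ribosome were lower as a group. Of the 76 genes 32 fell, 42.1% of them, where 7.59% of all genes tested fell, and 1 rose, Mrps7, where 9.16% of all genes rose. The 32 were spread over both subunits, with effects between -0.89 and -0.38, so that the geometric mean signal after TGF-β was between 54.1% and 76.9% of the unstimulated one. The median effect over all 76 genes was -0.38, beside 0.07 over all genes tested, and 69 of the 76 were below 0, where 43.2% of all genes were. On all 4 TGF-β arrays 36 of the genes had a lower signal than on both unstimulated arrays, where 10.9% of genes above the floor did so, and 2 had a higher one, Mrps7 and Mrpl33, where 13.5% did so.

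The number of calls depended on the arrays and on the processing, while the median stayed below 0 in every fit run. Leaving out any 1 array leaves 1 residual degree of freedom, which makes passing harder for every gene. The share of all genes passing the adjusted test is given below only for the fit without the array that stood apart. Without the array that stood apart, 0 of all 11698 genes passed the adjusted test in limma, with 1 residual degree of freedom left. In that fit 38 of the 76 genes were lower at an unadjusted p under 0.05, where 10.1% of all genes were, 69 were below 0, and their median was -0.43 beside 0.04 over all genes. Without the TGF-β 24 h or the untreated array, 0 of the 76 fell, without the SP600125 array 5 did, and without either 12 h array 6 did. Between 32 and 40 were lower at an unadjusted p under 0.05 in the 6 fits with 1 array left out, where 9.76% to 11.4% of all genes were, and the median over the 76 lay between -0.43 and -0.29. With all 6 arrays kept, 13 genes fell when each gene's probe sets were averaged, 2 when the variance prior had no trend, and 0 without the filter on low signal. At an unadjusted p under 0.05, 33, 37 and 43 genes were lower in these 3 fits, where 12.4%, 11.5% and 7.38% of all genes were.

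**Figure D1:**
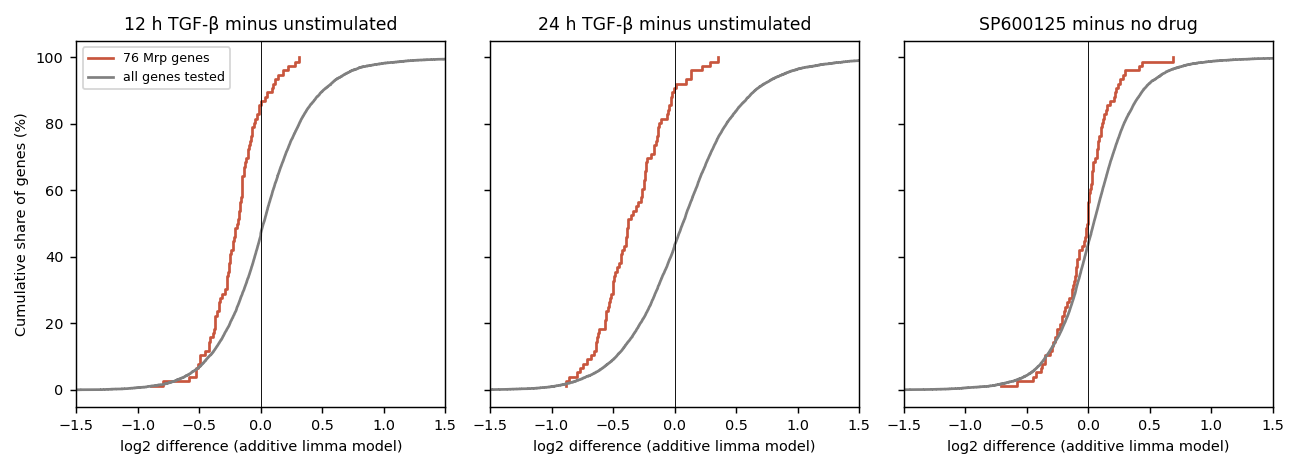
Cumulative share of genes, in percent, against the log2 difference for 12 h of TGF-β, 24 h of TGF-β and SP600125, for the 76 mitochondrial ribosomal protein (Mrp) genes and for all 11698 genes tested. The Mrp curve lies left of the curve of all genes for 12 h (medians -0.19 and 0.02) and 24 h (-0.38 and 0.07) of TGF-β, and close to it for SP600125 (-0.01 and 0.04).

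In the large subunit 21 of 49 genes fell and 0 rose at 24 h, with a median of -0.38. Mrpl12, the stalk protein of the L7/L12 family that also binds the mitochondrial RNA polymerase, had signals of 7782, 5163 and 4779 with SP600125 (0 h, 12 h and 24 h of TGF-β), against 10610.4, 5328 and 5064 without it. The 4 TGF-β arrays lay close together and well below both unstimulated arrays. Mrpl12 fell by 0.89 ± 0.12 at 24 h (limma adjusted p = 0.00378), and the difference was -0.97 without the array that stood apart. Mrpl42, a protein that bacterial ribosomes lack, had signals of 8179, 6916 and 3782 with SP600125 (0 h, 12 h and 24 h of TGF-β), against 11879, 10439 and 7594 without it. At each time it was lower with the drug, and in both arms it was lowest at 24 h. Its 24 h effect was -0.88 ± 0.13 (limma adjusted p = 0.00485), or -0.66 without the array that stood apart, where its lowest signal was measured.

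Mrpl22, whose bacterial relative lines the exit tunnel, had signals of 5661, 4256 and 3342 with SP600125 (0 h, 12 h and 24 h of TGF-β), against 6782, 4786 and 3839.9 without it. It was lower at 12 h than at 0 h and lower again at 24 h in both arms, and its effect at 24 h, -0.79 ± 0.10, had the smallest adjusted p of the family in limma, 0.00276. Mrpl2, whose bacterial relative lies beside the peptidyl transferase centre, had 2835, 1948 and 1710.2 with the drug and 2835, 2082 and 1617 without it at the same times. The arms were nearly alike, and the effect was -0.77 ± 0.11 (limma adjusted p = 0.00513). Mrpl34, a small protein of the bacterial type, had 3993, 2819.5 and 2213 with the drug and 3922, 2786 and 2528 without it, an effect of -0.74 ± 0.11 (limma adjusted p = 0.0052). For Mrpl22, Mrpl2 and Mrpl34 the TGF-β arrays did not overlap with the unstimulated ones.

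By descent, 13 of the 30 large-subunit genes of bacterial families fell at 24 h, with a median of -0.38, and 8 of the 19 genes found in mitochondria alone fell, with a median of -0.27. Over both subunits 18 of 47 genes of bacterial families fell and 1 rose (median -0.35), and 14 of 28 mitochondrial ones fell and 0 rose (median -0.39). The difference between these classes was not tested.

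Within the large subunit, short lists of genes for single regions had unlike counts, which were not tested against each other. The lists do not hold every protein of a region. Mrpl22, whose bacterial relative lines the exit tunnel, is in none of them. Of 5 central protuberance genes 4 fell, Mrpl18 by 0.62, Mrpl40 by 0.52, Mrpl48 by 0.52 and Mrpl38 by 0.50, while Mrpl46 had an effect of -0.16 ± 0.11 that did not pass. Of 4 stalk genes only Mrpl12 fell. Mrpl10, which anchors the stalk, had -0.05 ± 0.11, Mrpl11 -0.27 ± 0.11 and Mrpl54 -0.11 ± 0.13, with limma adjusted p values of 0.821, 0.143 and 0.638. Mrpl10 had signals of 2630.1, 2526 and 2602 with SP600125 (0 h, 12 h and 24 h of TGF-β), against 2575, 2168 and 2441 without it, and the TGF-β arrays with the drug were within the range of the unstimulated ones or close below it. At the tunnel exit Mrpl23 fell by 0.38 ± 0.10 (limma adjusted p = 0.0343). Mrpl45, which lies against the inner membrane there, had 0.01 ± 0.12, Mrpl44, which carries an RNase III fold, -0.19 ± 0.12, and Mrpl24 0.29 ± 0.09 (limma adjusted p = 0.0718), none of them past the test.

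Further large-subunit genes with a role of their own were in the same range. Mrpl58, a peptidyl-tRNA hydrolase that was taken into the ribosome, fell by 0.39 ± 0.10 (limma adjusted p = 0.0324). Mrpl57 had -0.27 ± 0.09 and did not pass. Mrps30, which sits in the large subunit in spite of its name, had -0.38 ± 0.12 (limma adjusted p = 0.0644). Its signals were 3306, 2625 and 2837 with the drug (0 h, 12 h and 24 h of TGF-β), against 3284, 2455 and 2271 without it, and the 4 TGF-β arrays were lower than both unstimulated ones.

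**Figure D2:**
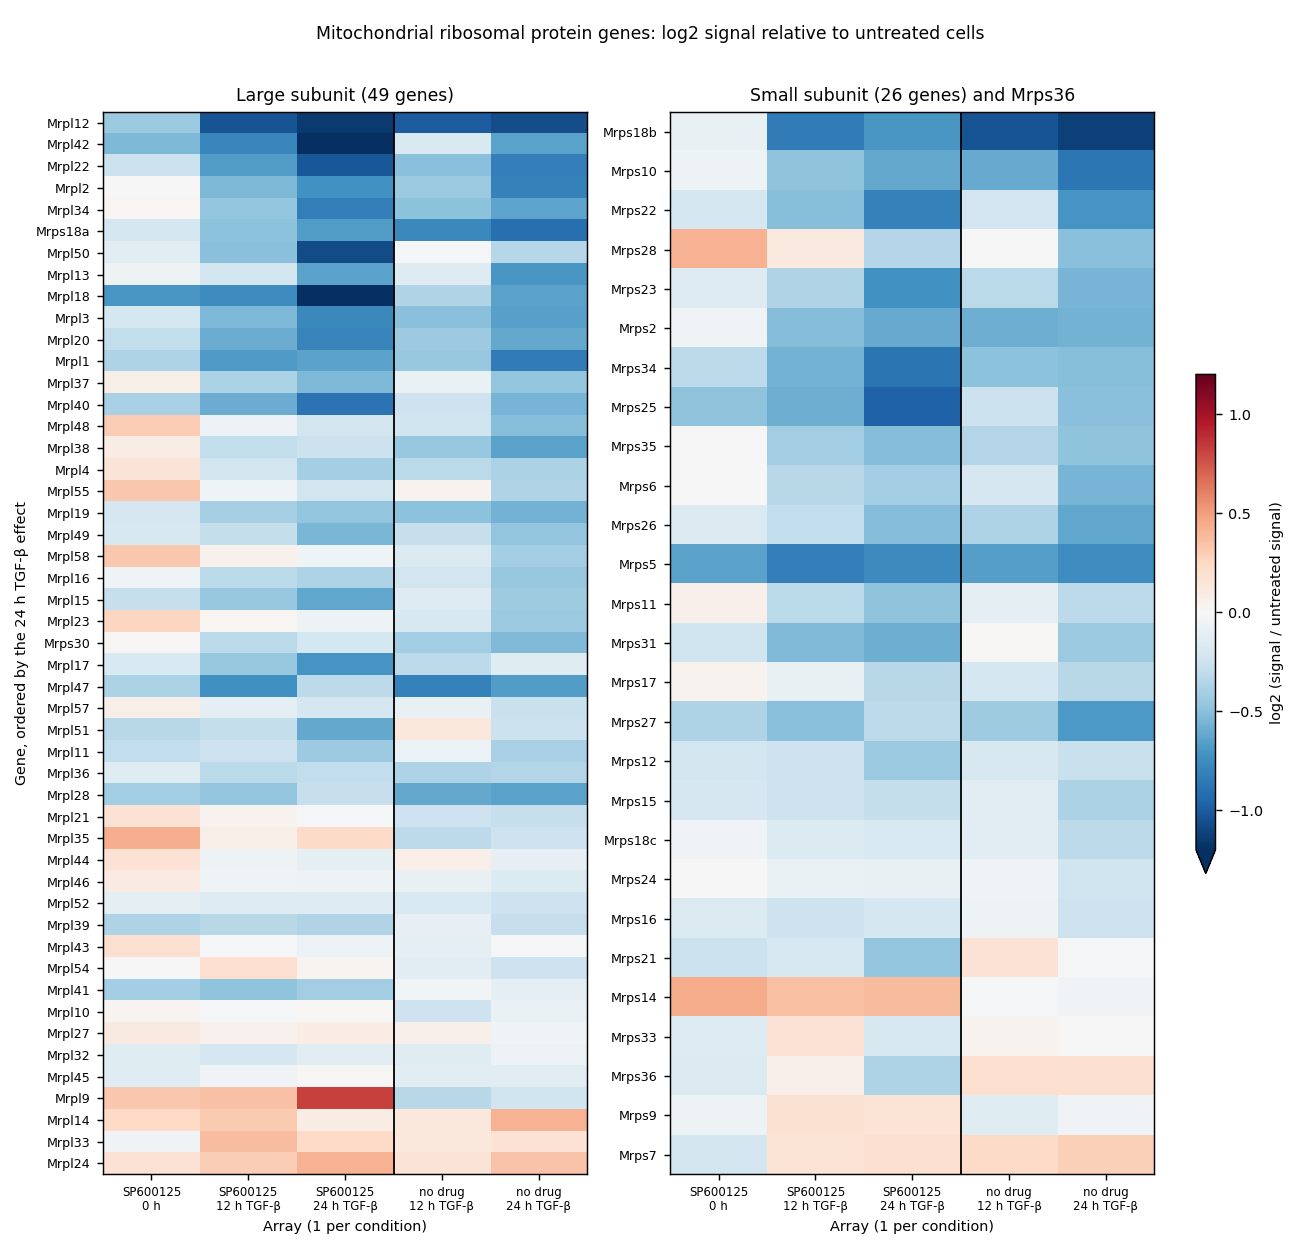
Log2 signal of each of the 76 genes relative to the untreated array, on the other 5 arrays (3 with SP600125, left of the line, and 2 without it), with large-subunit genes on the left and small-subunit genes and Mrps36 on the right, ordered by the 24 h TGF-β effect. Blue is lower than in untreated cells, and the colour scale stops at -1.2 and 1.2, which cuts the lowest values of Mrpl42 and Mrpl18. The TGF-β columns are mostly blue from Mrpl12 down to the middle of each panel, and Mrpl24 and Mrps7 are among the exceptions. Mrpl9 and Mrps14 are higher than in untreated cells in the columns with SP600125 only.

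In the small subunit 11 of 26 genes fell and 1 rose at 24 h, with a median of -0.41. Of the 9 genes of mitochondrial proteins 6 fell, with a median of -0.50, and of the 17 genes of bacterial families 5 fell and 1 rose, with a median of -0.24. Mrps22, a mitochondrial protein of the small subunit, had signals of 3812, 3113 and 2521 with SP600125 (0 h, 12 h and 24 h of TGF-β), against 4426, 3772 and 2712 without it, and fell by 0.65 ± 0.10 (limma adjusted p = 0.00649). Mrps34 fell by 0.54 and Mrps35 by 0.50. Mrps27, a pentatricopeptide repeat protein, had an effect of -0.32 ± 0.21, which did not pass. Its value was -0.62 without the array that stood apart.

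Among the small-subunit genes of bacterial families, Mrps10 fell by 0.71 ± 0.12 and Mrps2 by 0.56 ± 0.11 (limma adjusted p = 0.00698 and 0.0145). Mrps5 had -0.44 ± 0.18 with a limma adjusted p of 0.136. Its signals were 1040.2, 913 and 953 with SP600125 at the successive times, against 1619, 1024 and 964 without it, and the untreated array alone was high. Mrps12, a protein of the decoding site, had -0.24 ± 0.12 and Mrps14 -0.05 ± 0.09, and neither passed. Mrps7, which binds ribosomal RNA in the head of the subunit, was the 1 gene of the family that rose. Its signals were 6442, 8398 and 8577 with the drug (0 h, 12 h and 24 h of TGF-β), against 7518, 8831 and 9183 without it. All 4 TGF-β arrays were higher than both unstimulated arrays, and the effect was 0.35 ± 0.09 (limma adjusted p = 0.0401). That call was lost when the arrays were scaled on their medians, with the floor at the 25th percentile, and without the filter or the trend in the variance prior, among other alternatives.

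The 3 paralogs of the bacterial S18 protein were unlike in size of effect. Mrps18b, in the small subunit, had signals of 3449, 2051 and 2267 with SP600125 (0 h, 12 h and 24 h of TGF-β), against 3675, 1789 and 1693 without it. Mrps18a, which sits in the large subunit, had 2559, 2107 and 1859 with the drug, against 2959, 1730.0 and 1581 without it. Mrps18c had 5839.9, 5365 and 5290.4 with it, against 6009, 5459.7 and 4820.2 without it. For Mrps18b and Mrps18a the signal dropped further without the drug than with it, and for Mrps18c all 4 TGF-β arrays were also below both unstimulated ones, by less. At 24 h Mrps18b fell by 0.86 ± 0.14 and Mrps18a by 0.68 ± 0.15 (limma adjusted p = 0.00673 and 0.0181), while Mrps18c had -0.23 ± 0.10 and did not pass (limma adjusted p = 0.156). The differences between the paralogs were not tested. Mrps36 had -0.0011 ± 0.13 at 24 h.

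**Figure D3:**
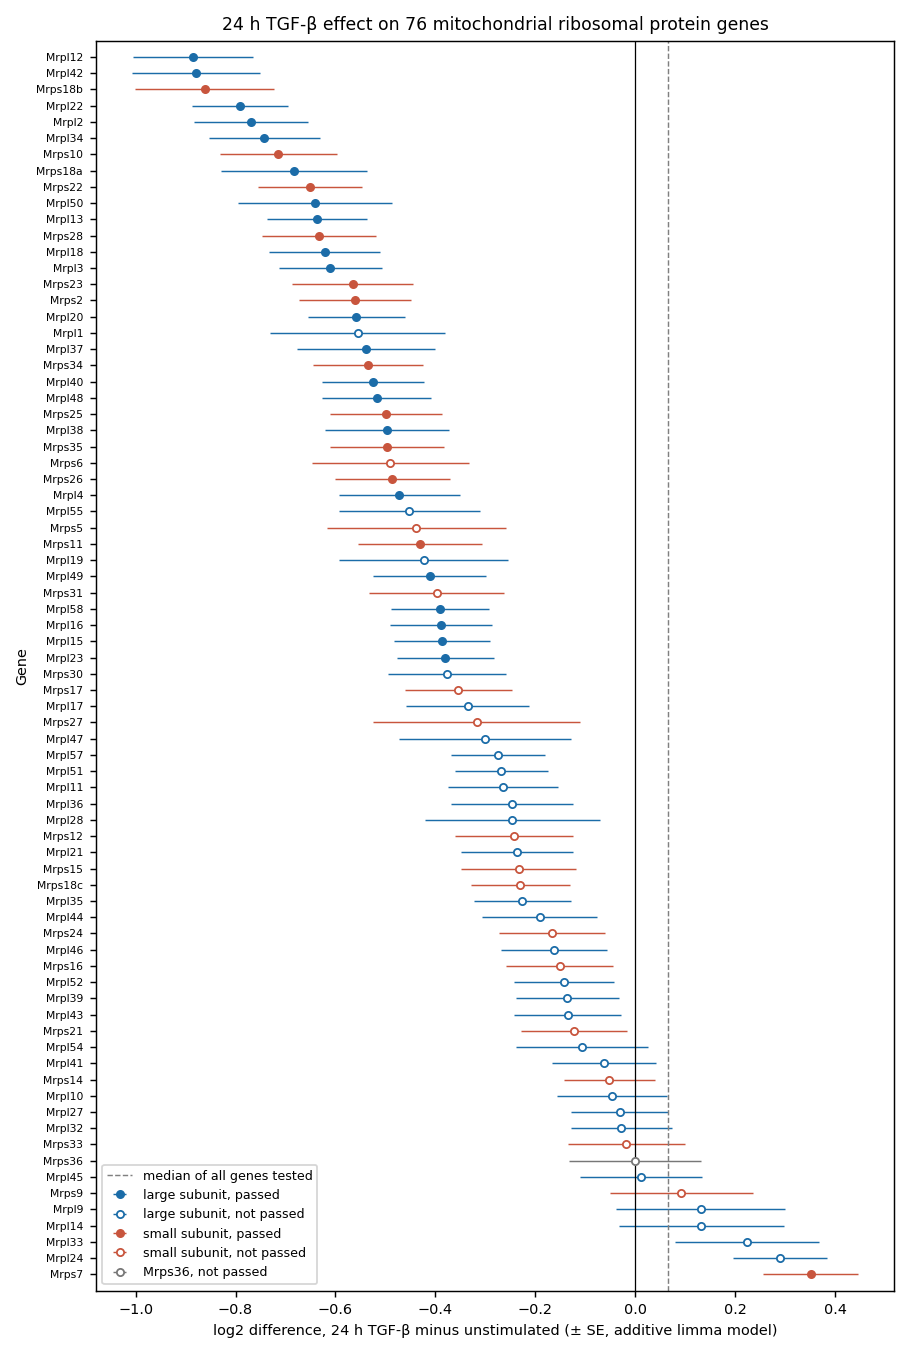
Log2 difference for 24 h of TGF-β against no TGF-β in each of the 76 genes, from the additive limma model, with bars of ± 1 standard error, in order of size. Filled points passed an adjusted p of 0.05 (32 below 0 and Mrps7 above it), open points did not, the colours give the subunit, and the dashed line is the median of all genes tested, 0.07.

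The stretches upstream of 3 genes that fell are shown because each holds a sequence searched for in the promoters of the family. RefSeq gave a promoter, from 250 bases before to 50 after the start, for 67 of the 76 genes, on build GRCm38.p6. For Mrpl22 the 200 bases before the start are chr11:58171464-58171663, and for Mrpl34 they are chr8:71464726-71464925. For Mrpl2, which has several listed starts, they are chr17:46646021-46646220. All 3 lie on the + strand. Capitals mark CCGGAAG, the core bound by ETS factors such as GABP, in Mrpl22 and Mrpl34, and CACGTG, the E-box bound by MYC among others, in Mrpl2.
Mrpl22: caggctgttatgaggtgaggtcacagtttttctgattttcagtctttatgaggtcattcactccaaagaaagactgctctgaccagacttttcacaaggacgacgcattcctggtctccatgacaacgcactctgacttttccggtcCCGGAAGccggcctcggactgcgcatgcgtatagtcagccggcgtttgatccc
Mrpl34: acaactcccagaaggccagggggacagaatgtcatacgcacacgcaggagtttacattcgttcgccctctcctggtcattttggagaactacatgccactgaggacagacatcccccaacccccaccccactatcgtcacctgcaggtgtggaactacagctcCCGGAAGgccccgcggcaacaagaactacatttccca
Mrpl2: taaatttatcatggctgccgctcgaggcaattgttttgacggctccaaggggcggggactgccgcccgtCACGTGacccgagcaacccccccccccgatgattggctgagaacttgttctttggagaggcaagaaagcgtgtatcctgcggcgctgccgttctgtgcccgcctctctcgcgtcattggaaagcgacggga

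On either strand, CCGGAAG was present in 25 of the 67 promoters, 37.3%, beside 9.93% of 27025 promoters of all genes and 20.4% of those of 9480 genes tested. Of its 29 matches, 18 lay upstream of the start and 15 of them within 100 bases of it. CCATNTT, a core of YY1 sites with N for any base, was in 23 promoters, 34.3%, beside 18.2% of all and 17.9% of the tested ones. Of its 31 matches 16 lay after or across the start on the opposite strand, where the motif reads AANATGG and holds the letters of a start codon. CACGTG was in 5 promoters, 7.46%, beside 8.09% and 11.6%. The palindromic consensus of the factor NRF1 was in 3 (Mrpl9, Mrpl32 and Mrpl39), 4.48%, beside 1.07% and 2.37%. Of 25 promoters of genes that fell at 24 h, CCGGAAG was in 11 (44.0%), CCATNTT in 7 (28.0%), CACGTG in 3 (12.0%) and the NRF1 consensus in 0. Of the 42 of the other members, CCGGAAG was in 14 (33.3%), CCATNTT in 16 (38.1%), CACGTG in 2 (4.76%) and the NRF1 consensus in 3 (7.14%). No test of these differences was made. These are matches of letters in a window, and binding was not measured.

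At 12 h of TGF-β most of the family was also lower, with fewer calls. Of the 76 genes 7 fell, where 2.5% of all genes tested fell, and 0 rose, where 2.74% rose. The 7 were Mrps18b, Mrpl12, Mrps2, Mrps10, Mrpl34, Mrpl2 and Mrpl22, all of bacterial families, with effects from -0.89 to -0.46. Such families make up 47 of the 76 genes. Their 12 h median was -0.21, beside -0.19 for the 28 mitochondrial genes, and the difference was not tested. At an unadjusted p under 0.05 in limma 22 genes were lower, where 9.95% of all were, and 1 was higher, where 11.9% were. The median was -0.19, beside 0.02 over all genes, and 65 of 76 were below 0, where 46.5% of all genes were. With any 1 array left out, 0 of the 76 passed in limma, and 8 to 22 were lower at an unadjusted p under 0.05, where 5.45% to 9.33% of all genes were. With all arrays kept, 0 fell with probe sets averaged, without the filter or without the trend. At an unadjusted p under 0.05, 20, 29 and 13 were lower in these fits, where 9.06%, 5.66% and 8.54% of all genes were. With the arrays scaled on their medians 11 fell, and 37 were lower at an unadjusted p under 0.05, where 13.8% of all genes were.

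The effects at 12 h and 24 h share the unstimulated arrays, so they were compared by the difference of the 2 times, which does not use those arrays. The median of 24 h minus 12 h was -0.14, beside 0.04 over all genes, and 62 of 76 genes were lower at 24 h than at 12 h, where 43.7% of all genes were. In limma 0 of the 76 passed the adjusted test in either direction, where 0.0684% of all genes rose and 0.0256% fell. At an unadjusted p under 0.05, 12 were lower and 0 were higher, where 6.98% and 8.38% of all genes were. Mrpl42 had a difference of -0.67 ± 0.13 between the times, Mrpl18 -0.41 ± 0.11 and Mrps22 -0.39 ± 0.10, with limma adjusted p values of 0.0775, 0.147 and 0.142. Mrps18b (0.03 ± 0.14) and Mrpl12 (-0.09 ± 0.12) had most of their 24 h effect at 12 h.

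The TGF-β change was then read in each arm, with 1 array against 1 and no test. In the drug arm the 12 h array had 12 h of SP600125 and its unstimulated array had 24 h. That pair therefore also differs in the time with the drug. At 24 h of TGF-β with SP600125 the median over the 76 genes was -0.28, against -0.40 without it, and at 12 h it was -0.19 with the drug, against -0.20 without it. With the drug 11 genes were at least 1.5-fold lower at 24 h, where 8.32% of genes above the floor were, and without it 20 were, where 8.34% were. The array of 24 h with the drug was the one that stood apart, and these values moved with the scaling. With the arrays scaled on their medians 28 genes were 1.5-fold lower at 24 h with the drug (median -0.45), against 30 without it (median -0.49). That scaling shifted genes in general down as well. Under it 19.6% of all genes were lower at 24 h at an unadjusted p under 0.05 in limma, against 13.3% as deposited. The share of all genes past 1.5-fold under that scaling is not given here. The larger counts therefore cannot be told apart from the general shift. At 12 h 2 genes were lower by that fold with the drug (Mrpl12 and Mrps18b, background 6.63%) and 8 without it (background 7.13%). None of the 76 was 1.5-fold higher at 12 h or 24 h with the drug, where 8.5% and 13.9% of genes were, or without it, where 10.2% and 14.6% were. At 2-fold, the threshold of the study's design, 0 of the 76 were higher at 12 h and 0 at 24 h with SP600125 (background 2.24% and 4.16%) or without it (2.91% and 4.89%). With the drug 0 were 2-fold lower at 12 h (1.17%) and 1 at 24 h, Mrpl42 (1.8%). Without it 1 was lower at 12 h, Mrps18b (1.31%), and 2 at 24 h, Mrps18b and Mrpl12 (1.72%). The pairs of an arm share its unstimulated array.

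The interaction of TGF-β and SP600125 was fitted with 12 h and 24 h as repeats. It passed the adjusted test in limma for 0 of the 76 genes and 0 of all genes. That fit counts the change from 12 h to 24 h as error, and the median standard error over the 76 was 0.25. It cannot tell a missing interaction from one too small for that error. At an unadjusted p under 0.05, 1 of the 76 had a positive interaction, where 1.22% of all genes did, and 0 had a negative one, where 1.46% did. The gene was Mrpl28, with an interaction of 0.68 ± 0.22 (unadjusted p = 0.0299 in limma), named after its values were seen. Its signals were 3106, 2995 and 3438 with SP600125 (0 h, 12 h and 24 h of TGF-β), against 4161, 2712 and 2673 without it, and the untreated array was the highest of the 6. Its other 2 probe sets did not show this, with interactions of -0.32 ± 0.33 on one of nearly the same brightness and -0.04 ± 0.33 on the other. Over the family the median interaction was 0.07, beside -0.02 over all genes. For Mrps18b it was 0.40 ± 0.22 and for Mrpl12 0.38 ± 0.19.

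SP600125 itself moved fewer of these genes than 24 h of TGF-β did. Averaged over the 3 TGF-β states, 3 of the 76 rose, 3.95%, where 4.15% of all genes tested rose. A larger share fell than among all genes, 7 of the 76 or 9.21%, where 3.76% of all genes fell. The median was -0.01, beside 0.04 over all genes. All 3 arrays with the drug were lower than all 3 without it for 5 genes (Mrpl18, Mrpl39, Mrpl41, Mrpl51 and Mrps21), where 5.32% of genes were, and higher for 3 genes (Mrpl9, Mrpl35 and Mrps14), where 9.16% were. With any 1 array left out 0 of the 76 passed in either direction, with 10 or 11 lower (7.36% to 8.39% of all genes) and 5 to 8 higher (8.66% to 9.92%) at an unadjusted p under 0.05. With all 6 arrays 17 were lower at that p, where 10.6% of all genes were, and 8 were higher, where 13.5% were. None passed with probe sets averaged, without the filter or without the trend in the variance prior, where 13, 11 and 8 were lower and 6, 9 and 4 higher at an unadjusted p under 0.05. Of all genes 9.13%, 5.72% and 8.51% were lower and 11.7%, 6.92% and 12.5% higher in those fits.

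The genes that rose with the drug were Mrpl9, Mrpl35 and Mrps14, all of bacterial families, which make up 47 of the 76 genes. Mrpl9 had signals of 2453, 2504 and 3470.1 with SP600125 (0 h, 12 h and 24 h of TGF-β), against 1966, 1563 and 1666 without it, and its effect was 0.69 ± 0.14 (limma adjusted p = 0.0236). The highest of these signals was on the array that stood apart, and without that array the effect was 0.50. Mrps14 had 11012, 10398 and 10525 with the drug, against 8098, 8038 and 7879 without it. It hardly moved with TGF-β, and the drug effect was 0.41 ± 0.07 (limma adjusted p = 0.0162), or 0.41 without the array that stood apart. Mrpl35 had 5656, 4391 and 4913 with the drug, against 4178, 3362 and 3516 without it, an effect of 0.44 ± 0.08 (limma adjusted p = 0.0167).

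Of the 7 genes that fell with the drug, Mrpl42 fell by 0.71 ± 0.10 and Mrpl18, of the central protuberance, by 0.58 ± 0.09 (limma adjusted p = 0.00776 and 0.00979). Mrpl18 had signals of 4604, 4411 and 3034 with SP600125 (0 h, 12 h and 24 h of TGF-β), against 7465, 5799 and 4784 without it. Each array with the drug was lower than every array without it. The others were Mrps25 (-0.42), Mrpl41 (-0.39), Mrpl51 (-0.37), Mrps21 (-0.36) and Mrpl40 (-0.35). Mrpl42, Mrpl18, Mrpl40 and Mrps25 fell both with the drug and at 24 h of TGF-β. The drug effect of Mrpl51 was 0.15 when all of its probe sets were averaged, the opposite sign.

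In single pairs SP600125 had few effects of 1.5-fold in the family. Mrpl18 and Mrps5 were lower by that fold with the drug alone, where 5.6% of genes were, and 0 were higher, where 10% were. At 12 h of TGF-β Mrpl42 was lower (background 4.75%) and Mrpl9 higher (7.08%). At 24 h, on the array that stood apart, Mrpl18, Mrpl42 and Mrpl50 were lower (7.27%) and Mrpl9 was higher (11%). At 2-fold the drug alone had 0 genes higher (2.8%) and 0 lower (1.15%), at 12 h it also had 0 (1.62% and 1%), and at 24 h Mrpl9 was higher (2.89%) and Mrpl42 lower (1.77%).

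**Figure D4:**
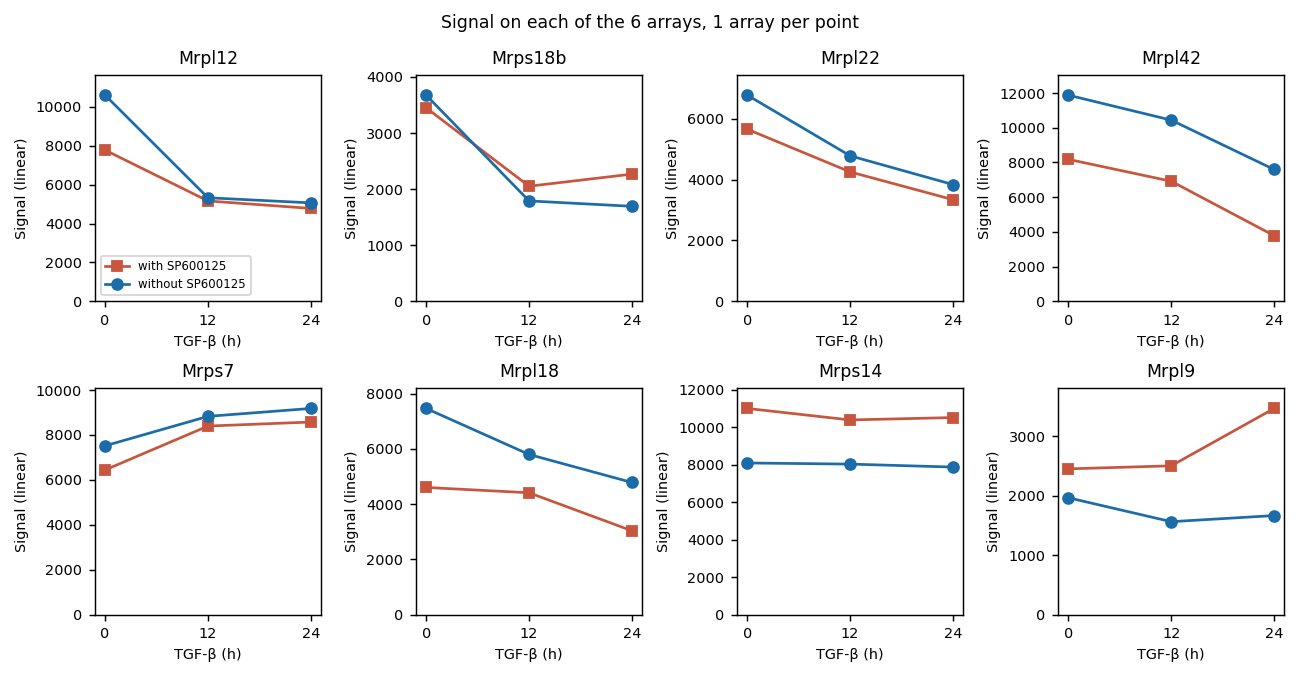
Linear signal of 8 genes on each array against hours of TGF-β, in separate panels with axes from 0, with SP600125 as squares and without it as circles, 1 array per point. Mrpl12, Mrps18b, Mrpl22 and Mrpl42 are lower at 12 h and 24 h than at 0 h in both arms, Mrps7 is higher, and Mrpl9 and Mrps14 are higher and Mrpl18 lower with the drug at each time.

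Other probe sets of the same genes gave a check that the brightest ones could not. There were 80 of them, 64 of which passed the filter on low signals, and 43 of the 64 had the same sign as the brightest at 24 h of TGF-β. For the 33 genes that passed at 24 h, 13 had another fitted probe set, and 15 of these 22 probe sets had the same sign. All of them had the same sign for 6 of the 13 genes. The 7 of opposite sign had a median mean signal of 113, beside 701 for the 15 of the same sign. For Mrpl48 an opposite one had a mean signal of 1226, with an effect of 0.07. Mrpl12, Mrps18b, Mrpl22, Mrpl2, Mrps22 and Mrps7 had 1 probe set each and no such check. For the drug effect, 8 of 10 further probe sets of called genes had the same sign, and both others of Mrpl9 did, with 0.59 and 0.44. Those of Mrpl9 had effects of -0.16 and -0.41 at 24 h of TGF-β, where the brightest had 0.13 ± 0.17.

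**Figure D5:**
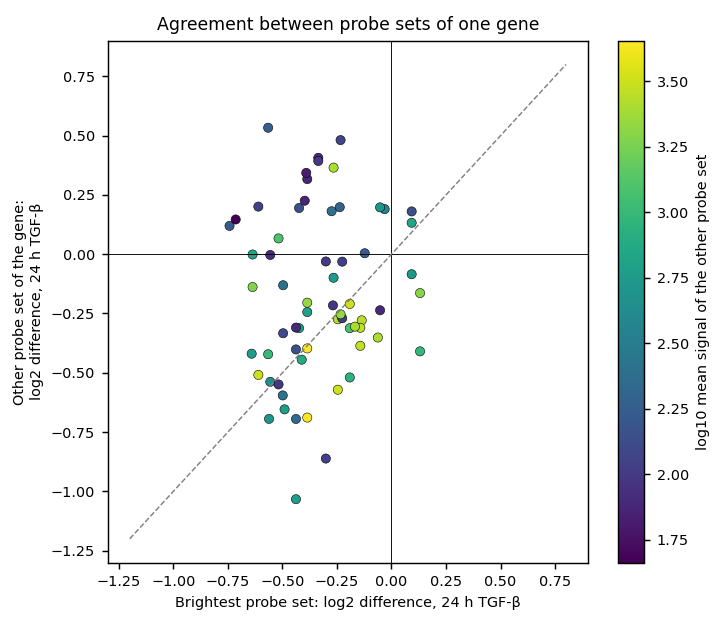
Log2 difference at 24 h of TGF-β in 64 other probe sets (vertical axis) against that in the brightest probe set of the same gene (horizontal axis), coloured by the log10 mean signal of the other probe set, with the line of equality dashed. Of the 64 points 43 lie in the quadrants of equal sign, and the points above 0 on the left are mostly dim.

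Related genes of mitochondrial translation were read for comparison, from lists chosen with earlier results of these data known. Of all genes tested 7.59% fell and 9.16% rose at 24 h. Of 4 further mitoribosomal proteins without an Mrp name 3 fell at 24 h, with a list median of -0.46, namely Ptcd3 (-0.67 ± 0.14), Chchd1 (-0.48 ± 0.09) and Dap3 (-0.44 ± 0.10), and Gadd45gip1 had -0.39 ± 0.13 (limma adjusted p = 0.0712). Of 12 translation factors 4 fell and 0 rose, with a median of -0.40. They were the elongation factor genes Tsfm (-0.93 ± 0.16) and Gfm1 (-0.54 ± 0.13), Guf1 (-1.10 ± 0.25), and Lrpprc (-0.85 ± 0.13), which binds mitochondrial messenger RNA. Of 24 assembly genes 2 fell, Eral1 (-0.48 ± 0.13) and Fastkd2 (-0.60 ± 0.13), and 1 rose, the ribosomal RNA methyltransferase gene Nsun4 (0.93 ± 0.18), with a median of -0.23. Of 9 genes of mitochondrial DNA transcription and replication 1 fell, Ssbp1 (-0.44 ± 0.09), with a median of -0.15. The falls in the assembly list and in this one were thus near the share of all genes.

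Genes of the cytosolic ribosome were mostly read near the top of the arrays' range, which limits what their counts show. Of 41 cytosolic ribosomal protein genes tested, 2 fell (Rps27 and Rpl12) and 2 rose (Rpl27a and Rpl37) at 24 h, where 7.59% and 9.16% of all genes did, and their median was 0.14 beside -0.38 in the mitochondrial family, with no test of that difference. At 12 h 1 of the 41 fell (Rpl12) and 0 rose, where 2.5% and 2.74% of all genes did, with a median of 0.08. For SP600125 2 rose (Rps6 and Rpl14) and 0 fell, where 4.15% and 3.76% of all genes did, with a median of 0.14. On all arrays 33 of the 41 had signals above 20000, a limit chosen after the values were seen, and ranged from 27296 to 55254, where the highest signal of any probe set was 64898. None of these 33 was among the genes called, which all lay among the 8 with signals from 437 to 9028. Whether the brightest probe sets compress a change was not tested. Among 8 tested regulators of nuclear genes for mitochondria, 2 fell and 0 rose at each time. Of all genes 2.5% fell at 12 h and 7.59% at 24 h. Myc fell by 1.43 at 12 h and 0.87 at 24 h, and Ppargc1b, a coactivator, by 1.46 and 1.28. Gabpa had 0.17 ± 0.12 and Gabpb1 0.12 ± 0.14 at 24 h, Yy1 0.32 ± 0.10 and Nrf1 -0.55 ± 0.19, none of them past the test.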

How the data were processed

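Total RNA from A20 cells was labelled and hybridised to 6 whole-genome mouse arrays, 1 per condition, with groups set by sample titles. What was deposited is a linear intensity per probe set; GCOS 1.2 is named in the submitters' processing notes, without settings that could be used here. The 2% trimmed mean of the deposited intensities was 500 on each array, and array medians differed by up to 1.17 times, so they were used as deposited. The platform annotation gave 1 symbol to 34958 probe sets, several to 932 and listed no entry for 9211. All 76 gene identifiers matched the RefSeq gene table, and 0 symbols were updated.

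Signals under the 50th percentile, 74.2, were set to it before log2. Genes above it on at least 2 arrays (11698) were tested with limma 3.58.1 in R 4.3.3, with an intensity trend in the variance prior. The additive model had 2 residual degrees of freedom and a prior of 6.09, and the interaction model a prior of 2.84. Adjustment was over all genes tested. Pairs of arrays were described by folds of 1.5 and 2, over 12997 genes above the floor on at least 1 array. The number of arrays limits the precision. The code was tested on simulated data. Named genes were up to 5 with the largest called rise and fall per effect, and genes listed by structural role. The members, lists and alternatives were chosen with earlier results of these data known. Alternatives covered scaling, floor, filter, probe sets, variance prior, fold and leaving out each array.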

Additional observations from a re-analysis of the deposited data

Results flagged for a closer look

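The 18S ribosomal RNA 3′ control probe set, which is outside the gene comparisons, had a signal of 5878.2 on the array of TGF-β for 24 h with SP600125, against 506.5 to 881.5 on the other 5 arrays. The median log2 signal of the 76 mitochondrial ribosomal protein genes was 11.32 on that array and 11.33 on the array of TGF-β for 24 h without the drug. The part of this control signal in the results was not tested beyond the fits without that array. No condition had the 4 arrays that a check for single outlying samples needs.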

How the results depend on the processing

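No paired analysis was possible because each condition had 1 array and the labels give no replicate numbers. The 24 h median of the 76 genes was below 0 in every alternative fit, while the counts of calls moved with most choices. The cause was not tested. Adjusted calls below are given without the share of all genes called in the same fit. A changed count may thus be a change over the whole array. Scaling the arrays on their medians shifted the 24 h median of all genes tested to -0.04, against 0.07 as reported, and gave 11 falls at 12 h, 0 rises at 24 h and a 24 h median of -0.51. Quantile normalization gave 4 falls at 12 h, 2 rises at 24 h and 5 rises with SP600125. At an unadjusted p under 0.05 in limma, 58 genes were lower at 24 h with median scaling and 42 with quantile normalization. Of all genes 19.6% and 14.2% were. A floor at the 25th percentile gave 0 rises at 24 h, and log2 of signal plus 16 gave 2 falls from 12 h to 24 h. Averaging each gene's probe sets left 0 falls at 12 h, 13 falls and 0 rises at 24 h (median -0.25), and 0 rises and 0 falls with SP600125, where the effect of Mrpl51 turned to 0.15. With every probe set as its own row 0 rose at 24 h. Without the filter 0 passed at 12 h, at 24 h or with SP600125 in either direction, although 43 genes were lower at 24 h at an unadjusted p under 0.05. Requiring all 6 arrays above the floor gave 11 falls at 12 h, 3 falls from 12 h to 24 h and 5 rises with SP600125. Without a trend in the variance prior 0 fell at 12 h, 2 fell and 0 rose at 24 h, and 0 rose and 0 fell with SP600125.

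With 1 array left out, 24 h falls ranged from 0 to 6 and 24 h rises from 0 to 0; falls and rises at 12 h, from 12 h to 24 h, with SP600125 and for the interaction were 0. Medians ranged from -0.21 to -0.17 at 12 h, from -0.43 to -0.29 at 24 h, from -0.18 to -0.11 for 24 h minus 12 h, from -0.05 to -0.00553 for SP600125, and from -0.000517 to 0.17 for the interaction.

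In single pairs, a fold of 2 left 1 gene lower after 12 h and 2 after 24 h of TGF-β without the drug, and 0 after 12 h and 1 after 24 h with it; SP600125 left 0 lower alone, 0 lower and 0 higher at 12 h, and 1 lower at 24 h. Median scaling put 28 genes 1.5-fold lower at 24 h with the drug (median -0.45), while SP600125 left 2 lower at 12 h and 6 lower at 24 h (median -0.083). Genes in general were also lower at 24 h of TGF-β under that scaling, as given above. Quantile normalization put 1 lower at 12 h with the drug, and SP600125 left 0 lower at 12 h. Averaged probe sets put 4 lower at 12 h and 11 at 24 h without the drug, and SP600125 left 1 higher alone, 0 lower at 12 h and 1 lower at 24 h. For these scalings and probe-set choices the share of all genes past 1.5-fold is not given here. The counts thus show how far the numbers moved, not how the family compared with other genes. Counts below are of probe sets and cannot be set beside those of genes. With 144 probe sets as rows, 18 were lower at 12 h and 2 higher at 24 h without the drug. With it 14 were lower and 2 higher at 12 h, then 21 lower and 2 higher at 24 h. SP600125 alone left 7 higher and 7 lower, its 12 h pair 8 and 6, and its 24 h pair 9 and 6.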
